A study of Homo sapiens with 16 samples.

Results

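The genes followed here were TTC8, RPGRIP1L, OBFC2B, TDRKH, PRPF40B, PIAS3, PDE4A, LINC00265 and ZNF444. They were chosen by symbol from 10304 listed RefSeq transcripts because earlier work on these same counts had shown more polymerase at their starts, or more at the start relative to the rest of the gene, after SMARCA5 was degraded. Each symbol matched 1 transcript, so 9 of 10304 were members. The gain that chose them is therefore given as a description with its spread and with no test. PRO-seq labels the nascent RNA of polymerases engaged on DNA in isolated nuclei, and was performed in Kasumi-1, an established acute myeloid leukaemia cell line. All 14 libraries used came from cells in which the ISWI remodelling ATPase SMARCA5 was tagged with FKBP12F36V on both alleles, which lets the small molecule dTAG-47 mark the protein for destruction. The groups were untreated tagged cells (0 h, n = 5) and tagged cells given 500 nM dTAG-47 for 2 h (n = 3), 6 h (n = 4) or 24 h (n = 2), described as biological replicates. Every comparison used the same untreated libraries, so the 3 times are not independent of each other. Libraries of the parental line, which lacks the tag, were not analysed here, and the labels do not say whether the tagged line was 1 clone.

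RNA polymerase II commonly halts shortly after it starts a transcript, held by the NELF and DSIF factors, and moves on once the kinase P-TEFb releases it. Reads in the promoter-proximal window of a gene therefore report mostly newly started or halted polymerase, and reads further along, in the gene body, report polymerase in elongation. A higher promoter-proximal count alone does not separate more starts from slower release, and in bulk nuclei more cells with a polymerase cannot be told apart from more polymerase per cell.

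Promoter-proximal totals ran from 1667950 to 7171601 reads per library and gene-body totals from 11182894 to 34209362. A code in the column names divides the libraries into 3 sets, called runs here although its meaning is not given in the sources used here. Run 1 held 2 untreated libraries and 1 of 2 h, run 2 held 2 of each time, and run 3 held 1 untreated and 2 of 6 h. Promoter-proximal reads made up 9.55% and 12.6% of all reads in the untreated libraries of run 1 against 17.3% in its 2 h library, but 19.7% and 20.6% in the untreated libraries of run 2 against 11.3% to 15.7% in its treated ones. Values below were for that reason also compared within runs. Levels are CPM, counts scaled to a common library size with TMM factors in each region, and a log2 change comes from an edgeR fit with terms for time and run and carries its standard error (SE). The markers RUNX1, KIT, CD34, CD33, MPO, SPI1 and CEBPA had gene-body reads in the untreated libraries, from a mean of 5.44 CPM for CEBPA to 3800 for KIT.

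Across the 9 genes the promoter-proximal level was higher than in untreated cells at every time. The median fitted log2 change was 1.81 at 2 h, 1.52 at 6 h and 1.55 at 24 h, where the median over all 9980 transcripts that passed the expression filter was -0.0018, 0.00711 and 0.00491. All 9 members passed that filter. In the gene body they did not move as 1 group: their fitted log2 changes ran from -0.61 to 1.61 at 2 h, with 7 above zero and 2 below. For reference, 4.61%, 2.24% and 1.41% of transcripts were called near promoters at 2, 6 and 24 h at an adjusted p under 0.05 (edgeR's quasi-likelihood test, Benjamini-Hochberg), and 38.6%, 26.8% and 19.8% in gene bodies. By direction, 2.43%, 0.802% and 0.631% were higher and 2.17%, 1.44% and 0.782% lower near promoters, and 19.7%, 13.5% and 10.8% were higher and 18.9%, 13.4% and 9.08% lower in bodies. The difference between the regions was called for 1.15%, 0.401% and 0.271% (limma). In 8 of the 9 genes every treated library lay above every untreated one near the promoter, an order that 0.752% of all transcripts showed and that the choice of members used. OBFC2B was the exception.

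**Figure D1:**
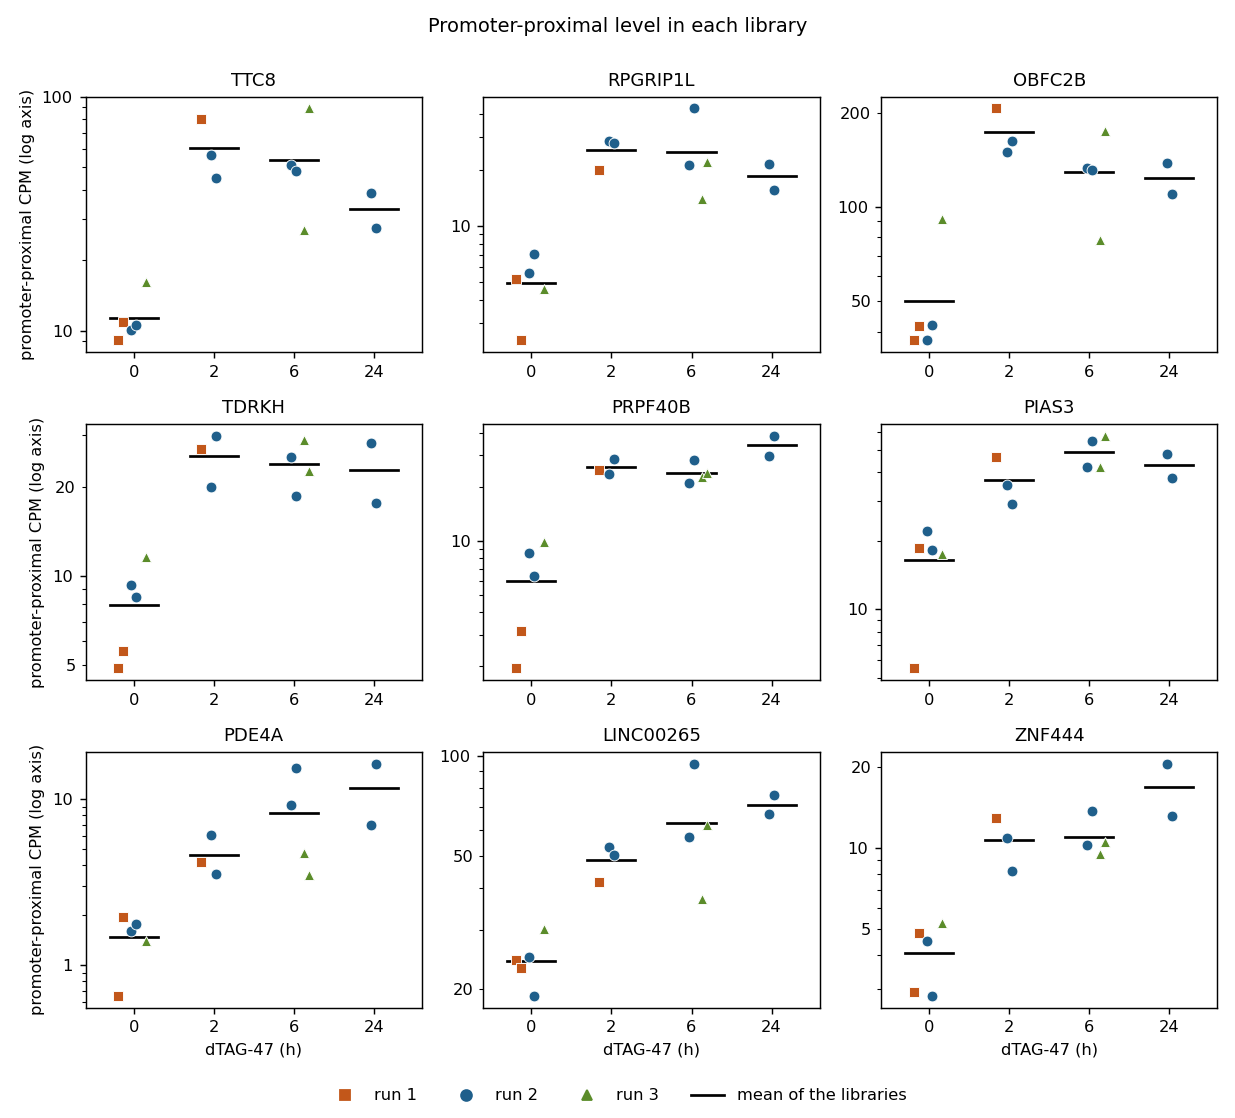
Promoter-proximal CPM (log axis) of each gene in each library by hours of dTAG-47, with squares, circles and triangles for runs 1, 2 and 3 and a bar for the mean of the libraries at that time. In 8 panels all treated points lie above all untreated points. In OBFC2B the untreated library of run 3, at 91.5 CPM, lies above a 6 h library of the same run, at 78.7 CPM.

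TTC8 (RefSeq NM_144596, chr14:89290978-89344335 on hg19) encodes BBS8, a subunit of the BBSome, the coat complex that carries membrane proteins into and out of the primary cilium and whose loss causes Bardet-Biedl syndrome. Its start gained the most of all transcripts at 2 h, ranking 1 of 9980. The promoter-proximal counts were 28 and 45 reads in the untreated libraries of run 1, 38 and 30 in those of run 2 and 46 in that of run 3. After 2 h they were 93 and 115 in run 2 and 556 in run 1, after 6 h 99 and 116 in run 2 and 97 and 332 in run 3, and after 24 h 77 and 69. No treated library had as few TTC8 reads near the promoter as any untreated one. As CPM the level went from 11.4 ± 2.75 (SD, n = 5) to 60.5 ± 17.9 (n = 3), 53.9 ± 26.0 (n = 4) and 33.1 ± 7.80 (n = 2). The fitted log2 changes were 2.52 ± 0.30 (SE), 2.22 ± 0.31 and 1.74 ± 0.38. Within runs the log2 difference was 2.93 at 2 h in run 1, 2.22, 2.19 and 1.60 at 2, 6 and 24 h in run 2, and 1.57 at 6 h in run 3. The gene was chosen on these same libraries, so the likeness of the runs is a description. Run 1 rests on 1 treated library and run 3 on 1 untreated library.

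The body of TTC8 showed no such gain. Its level was 25.2 ± 2.61 CPM untreated (SD, n = 5) and 24.5 ± 1.68 (n = 3), 23.7 ± 4.90 (n = 4) and 24.7 ± 0.849 (n = 2) after treatment, with fitted log2 changes of -0.14 ± 0.082 (SE), -0.02 ± 0.082 and -0.17 ± 0.10. The share of the gene's own reads that fell near the promoter is free of a common scaling factor but can move with the promoter-proximal share of the whole library, given above, which differed between runs. It was 7.63% ± 2.83 (SD, n = 5) untreated and 28.7% ± 10.5 (n = 3), 25.7% ± 9.68 (n = 4) and 19.0% ± 1.40 (n = 2) after 2, 6 and 24 h. The highest untreated library, of run 3, had 10.9% (95% exact binomial interval 8.11% to 14.3%) and the lowest treated library, a 6 h library of the same run, 16.3% (13.45% to 19.55%), intervals that cover counting error only. The 2 libraries of 6 h in run 3 lay far apart, at 16.3% and 39.3%.

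RefSeq lists starts of TTC8 at 2 sites on GRCh38.p14, 498 bases apart, and both windows are shown because the listed transcript does not say which of them its reads began at. The listed length of 53357 bases is closer to the GENCODE span from the downstream site (53333 bases) than to that from the upstream site (53843 bases), but GENCODE places this accession at the upstream one. Each line runs from 250 bases before the start to 30 after it on the plus strand, and the capitals mark the 30 transcribed bases. The first is chr14:88824401-88824680 and the second chr14:88823903-88824182.
TTC8 downstream start: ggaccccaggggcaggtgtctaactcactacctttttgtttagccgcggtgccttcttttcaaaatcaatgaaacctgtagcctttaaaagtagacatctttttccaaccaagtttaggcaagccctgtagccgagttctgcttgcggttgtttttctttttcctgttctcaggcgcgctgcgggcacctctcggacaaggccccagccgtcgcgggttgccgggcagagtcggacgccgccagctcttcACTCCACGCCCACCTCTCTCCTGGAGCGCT
TTC8 upstream start: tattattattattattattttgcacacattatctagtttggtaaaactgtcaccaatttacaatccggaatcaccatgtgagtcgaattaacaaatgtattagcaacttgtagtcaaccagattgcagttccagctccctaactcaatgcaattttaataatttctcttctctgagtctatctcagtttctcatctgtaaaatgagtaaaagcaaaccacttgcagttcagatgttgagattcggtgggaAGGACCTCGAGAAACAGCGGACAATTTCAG
Over the full RefSeq windows of 300 bases the downstream one is 57.3% G and C, close to the median of 58.7% over 35116 windows, and the upstream one 36.0%.

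RPGRIP1L (NM_015272, chr16:53633818-53737771) encodes a scaffold of the ciliary transition zone, the gate at the base of the cilium,. Its promoter-proximal level was 5.19, 2.43, 5.58, 7.05 and 4.56 CPM in the 5 untreated libraries. After 2 h it was 28.5, 27.8 and 20.0 CPM, after 6 h 21.1, 42.8, 14.0 and 22.1 CPM, and after 24 h 21.6 and 15.6 CPM. The lowest treated value was thus above the highest untreated one, with 10 to 21 reads behind each untreated value. The fitted log2 changes were 2.21 ± 0.30 (SE), 2.28 ± 0.31 and 1.55 ± 0.37 near the promoter. Its body was higher too, by 0.59 ± 0.090, 0.42 ± 0.091 and 0.36 ± 0.11 on the log2 scale, and above every untreated library in every treated one. The promoter-proximal share went from 2.93% ± 1.70 (SD, n = 5) to 8.01% ± 1.24 (n = 3), 8.11% ± 3.99 (n = 4) and 7.05% ± 0.495 (n = 2), with the 4.69% of a 6 h library of run 3 below the 5.56% of an untreated library of run 2.

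Other genes listed for the BBSome and its loading, and for the transition zone, were read for calls as well, and not all of them encode subunits. Near promoters 2.43%, 0.802% and 0.631% of all transcripts were higher at 2, 6 and 24 h. Of 9 listed genes of the BBSome and its loading, TTC8 apart, 1 rose near the promoter at 2 h and at 6 h and 0 at 24 h (edgeR). In either direction 6, 2 and 1 had an unadjusted p under 0.05, and 1, 1 and 0 were called by DESeq2. Of the 6 at 2 h, BBIP1 was lower, at -0.63 ± 0.29 (SE). The median log2 change of the 9 genes was 0.54, 0.33 and 0.21 (0.205), beside -0.0018, 0.00711 and 0.00491 over all transcripts. The gene that rose was BBS2, another BBSome subunit, by 0.88 ± 0.21 (SE, adjusted p = 0.025) at 2 h and 0.95 ± 0.22 (adjusted p = 0.0238) at 6 h. Its promoter-proximal level was 9.87 to 21.0 CPM in untreated libraries, 20.6 to 26.5 at 2 h, 24.5 to 34.9 at 6 h and 20.6 and 22.4 at 24 h. The 2 h call ended without a term for run and on leaving out any 1 library of 0 or 2 h in run 2, the 2 h library of run 1 or both untreated libraries of run 1, with adjusted p from 0.0114 to 0.302 over its alternatives. The 6 h call ended on leaving out the untreated library of run 3 or any 1 library of 0 or 6 h in run 2, with adjusted p up to 0.13. In its body BBS2 rose by 1.26 ± 0.23 at 2 h (adjusted p = 0.00124), a call kept under all 19 alternatives tried, although the change was 0.62 without the 2 h library of run 1. Of 11 genes listed for the transition zone, RPGRIP1L apart, 0 were called near the promoter at any time (3, 2 and 2 unadjusted, 0 by DESeq2). In the body 0 of them rose and 2 fell at 2 h, beside 19.7% and 18.9% of all transcripts. INVS, which encodes inversin of the inner cilium, fell there by 0.41 ± 0.063 on the log2 scale at 2 h (edgeR, adjusted p = 0.000476).

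OBFC2B (NM_024068, chr12:56618125-56623638, now NABP2) encodes the single-stranded DNA binding protein of the SOSS complex, which acts at DNA breaks. It was the shortest of the 9 transcripts. Near the promoter it had 37.6, 41.8, 37.5 and 42.0 CPM in the untreated libraries of runs 1 and 2 and 91.5 CPM in that of run 3. After 2 h it was 150.4, 162 and 207 CPM, after 6 h 133 and 132 CPM in run 2 and 78.7 and 174 CPM in run 3, and after 24 h 138 and 110.0 CPM. In runs 1 and 2 all treated libraries were above the untreated ones, with log2 differences between 1.62 and 2.37. In run 3 they were not: the difference was 0.36, and 1 of its 2 treated libraries lay below its untreated one. Its body was higher in parallel, from 4.43 ± 1.57 CPM (SD, n = 5) to 12.5 ± 0.469 (n = 3), 12.3 ± 1.59 (n = 4) and 11.3 ± 0.016 (n = 2), a fitted log2 change of 1.61 ± 0.18 (SE) at 2 h. The share near the promoter accordingly hardly moved, at 65.6% ± 8.61 (SD, n = 5) before and 68.5% ± 9.16 (n = 3) after 2 h.

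TDRKH (NM_006862, chr1:151744041-151763010) encodes a Tudor and KH domain protein of the piRNA pathway on mitochondria. Its promoter-proximal level was 4.87, 5.58, 9.30, 8.46 and 11.6 CPM untreated, 20.0, 29.7 and 26.8 CPM after 2 h, 25.2, 18.7, 28.8 and 22.6 CPM after 6 h, and 28.1 and 17.6 CPM after 24 h. The groups did not overlap, and the untreated libraries of run 1 were the lowest 2. Its body went from 10.5 ± 3.45 CPM (SD, n = 5) to 26.3 ± 5.47 (n = 3), 26.9 ± 2.40 (n = 4) and 26.8 ± 2.01 (n = 2). Start and body thus changed by a similar amount, with fitted log2 changes of 1.81 ± 0.26 (SE) and 1.46 ± 0.20 at 2 h. The log2 difference between the 2 regions, promoter-proximal minus gene-body, was 0.27 ± 0.27 at 2 h and 0.00 (0.0023) ± 0.32 at 24 h.

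PRPF40B (NM_012272, chr12:50017403-50038449) encodes a splicing factor that joins proteins bound at the ends of an intron. Its promoter-proximal level was 1.95 and 3.16 CPM in the untreated libraries of run 1, 8.50 and 6.35 CPM in those of run 2 and 9.82 CPM in that of run 3. The values of run 1 rested on 6 and 13 reads. Treated libraries had 23.7, 28.6 and 24.8 CPM at 2 h, 21.1, 28.2, 22.6 and 24.0 CPM at 6 h, and 29.6 and 38.4 CPM at 24 h. All 9 were above the highest untreated value. The body had 8.75 ± 4.14 CPM untreated (SD, n = 5) and 22.9 ± 3.48 (n = 3), 20.0 ± 1.85 (n = 4) and 19.7 ± 0.999 (n = 2) after treatment, again with run 1 lowest before treatment, at 4.23 and 4.42 CPM. At 24 h the fitted log2 change was 2.34 ± 0.34 (SE) near the promoter and 0.96 ± 0.21 in the body, a difference between regions of 1.30 ± 0.28 against 0.67 ± 0.23 at 2 h.

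LINC00265 (NR_026999, chr7:39773167-39834222) is a long non-coding RNA. Its promoter-proximal level was 24.3, 23.1, 25.0, 19.0 and 30.2 CPM untreated, 53.4, 50.5 and 41.9 CPM at 2 h, 57.1, 94.6, 37.1 and 62.2 CPM at 6 h, and 66.7 and 76.0 CPM at 24 h. No untreated library reached a treated one, but the smallest gap was narrow, 30.2 against 37.1 CPM within run 3. The body went from 30.6 ± 6.93 CPM (SD, n = 5) to 55.4 ± 5.39 (n = 3), 59.8 ± 2.61 (n = 4) and 66.6 ± 5.76 (n = 2). At 2 h both regions had nearly the same fitted log2 change, 0.92 ± 0.25 (SE) and 0.84 ± 0.097, and the promoter-proximal share was 12.4% ± 1.84 (SD, n = 5) before and 12.5% ± 1.84 (n = 3) after.

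PIAS3 (NM_006099, chr1:145575988-145586546) encodes a SUMO E3 ligase known as an inhibitor of STAT3. Its promoter-proximal level was 5.52 and 18.7 CPM in the untreated libraries of run 1, 22.1 and 18.3 CPM in those of run 2 and 17.5 CPM in that of run 3. At 2 h it was 35.2, 28.96 and 46.6 CPM, at 6 h 42.2, 54.8, 42.1 and 57.9 CPM, and at 24 h 48.2 and 38.0 CPM. Every treated library was higher, and 1 untreated library of run 1 stood well below the other 4. The fitted log2 change at 2 h was 1.20 ± 0.30 (SE), 0.91 without that library, 0.70 without the 2 h library of run 1 and 0.65 in run 2 alone. On average its body was higher within every run, but untreated and treated libraries overlapped. An untreated library of run 2 had 9.58 CPM, above the 9.47 CPM of a 24 h library of the same run.

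**Figure D2:**
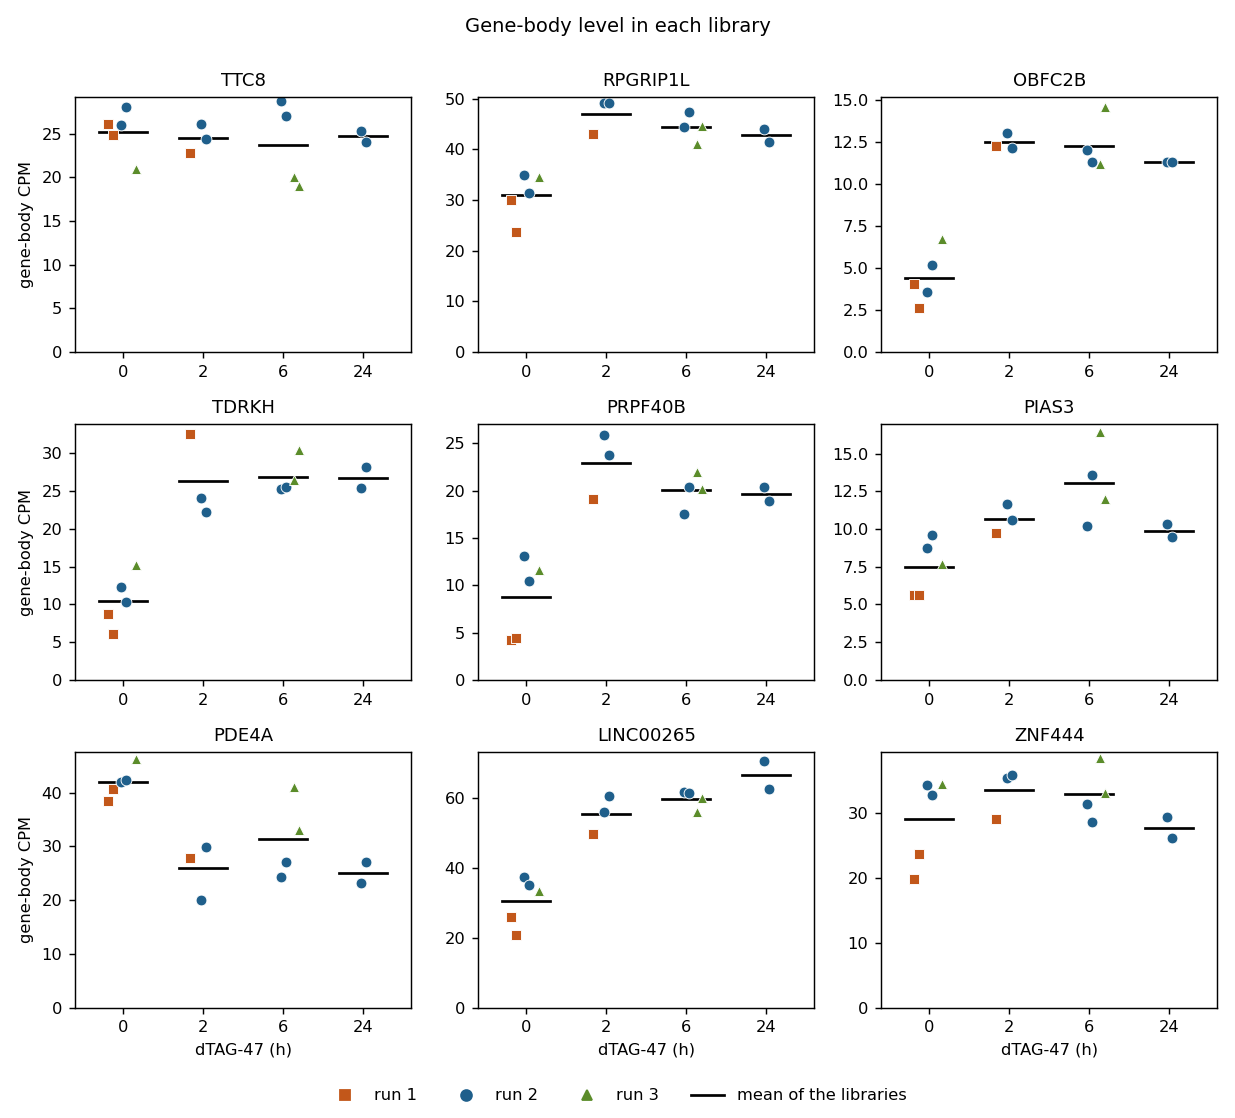
Gene-body CPM of each gene in each library by hours of dTAG-47, with the symbols for the runs and the bars for the means as near the promoter, on axes that start at 0. RPGRIP1L, OBFC2B, TDRKH, PRPF40B and LINC00265 have all treated points above all untreated points, TTC8 and ZNF444 overlap throughout, and PDE4A lies lower after treatment except for 1 library of 6 h in run 3, at 41.0 CPM.

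In 5 of the 9 genes, RPGRIP1L, OBFC2B, TDRKH, PRPF40B and LINC00265, the body was higher in every treated library than in every untreated one, which held for 5.50% of all transcripts. In 0 of the 9 was it lower in every treated library, against 6.44% of all. Within runs, 6 of 9 had a higher body in all 5 comparisons of a treated time with the untreated libraries of its run, against 21.1% of all transcripts, and 1 of 9, PDE4A, a lower body in all 5, against 20.9%. Near the promoter 9 of 9 were higher in all 5, against 13.6% of all. The rule used these contrasts, so the shares are given side by side and nothing is read from them.

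PDE4A (NM_001243121, chr19:10527449-10580307) encodes a phosphodiesterase that breaks down cyclic AMP, and was higher at its start and lower in its body. Near the promoter it had 2 and 8 reads in the untreated libraries of run 1, 6 and 5 in those of run 2 and 4 in that of run 3. It had 10, 9 and 29 reads after 2 h, 18, 37, 17 and 13 after 6 h, and 14 and 41 after 24 h. Every treated count exceeded every untreated one, but the counts are small and the level in untreated cells, 1.47 ± 0.501 CPM (SD, n = 5), was at the 0.13 percentile of all transcripts. The treated level was 4.59 ± 1.32 CPM (n = 3), 8.22 ± 5.37 (n = 4) and 11.7 ± 6.63 (n = 2), and the libraries of run 3 were the lowest at 6 h, with 4.75 and 3.50 CPM against 9.26 and 15.4 CPM in run 2. The body meanwhile went from 41.9 ± 2.85 CPM (n = 5) down to 25.9 ± 5.17 (n = 3), 31.4 ± 7.38 (n = 4) and 25.1 ± 2.70 (n = 2), and 1 library of 6 h in run 3, at 41.0 CPM, lay within the untreated range. The fitted log2 changes at 2, 6 and 24 h were 1.36 ± 0.43 (SE), 2.59 ± 0.43 and 2.64 ± 0.47 near the promoter and -0.61 ± 0.13, -0.53 ± 0.13 and -0.64 ± 0.17 in the body. At 6 and 24 h the difference between the regions, 2.54 ± 0.36 and 2.77 ± 0.44, ranked 1 of 9980.

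ZNF444 (NM_001253792, chr19:56652535-56672262) encodes a zinc finger transcription factor with a SCAN domain. Near the promoter it had 2.92, 4.86, 4.52, 2.82 and 5.26 CPM untreated, 10.9, 8.22 and 13.0 CPM at 2 h, 10.3, 13.7, 9.49 and 10.5 CPM at 6 h, and 20.6 and 13.2 CPM at 24 h. The treated libraries were all above the untreated ones, and the mean was highest at 24 h, in run 2 alone. The body showed no such step, with 19.8 to 34.5 CPM untreated (n = 5) and means of 33.4 ± 3.84 (SD, n = 3), 32.8 ± 4.15 (n = 4) and 27.7 ± 2.33 (n = 2) after treatment. Fitted log2 changes near the promoter were 1.39 ± 0.30 (SE), 1.47 ± 0.31 and 2.09 ± 0.36, and the difference between regions was 1.07 ± 0.26, 1.39 ± 0.26 and 2.15 ± 0.31.

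TTC8, PDE4A and ZNF444 were the 3 of 9 genes whose promoter-proximal share was higher in every treated library than in every untreated one. That order, shown by 0.0701% of 9980 transcripts, rests on values that the choice of members used, and nothing is read from it. For TTC8 the intervals of the nearest libraries, given above, overlapped. For PDE4A they were closer, 1.08% (95% exact binomial interval 0.351% to 2.50%) in an untreated library of run 2 and 1.44% (0.766% to 2.44%) in a 6 h library of run 3. For ZNF444 they were 3.08% (1.81% to 4.89%) in an untreated library of run 2 and 3.45% (2.40% to 4.79%) in a 6 h library of run 3. The intervals overlapped for these 2 genes as well. The group means at 2 h were 28.7% ± 10.5, 2.82% ± 0.768 and 5.17% ± 2.45 (SD, n = 3) against 7.63% ± 2.83, 0.668% ± 0.352 and 2.43% ± 0.591 untreated (n = 5).

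**Figure D3:**
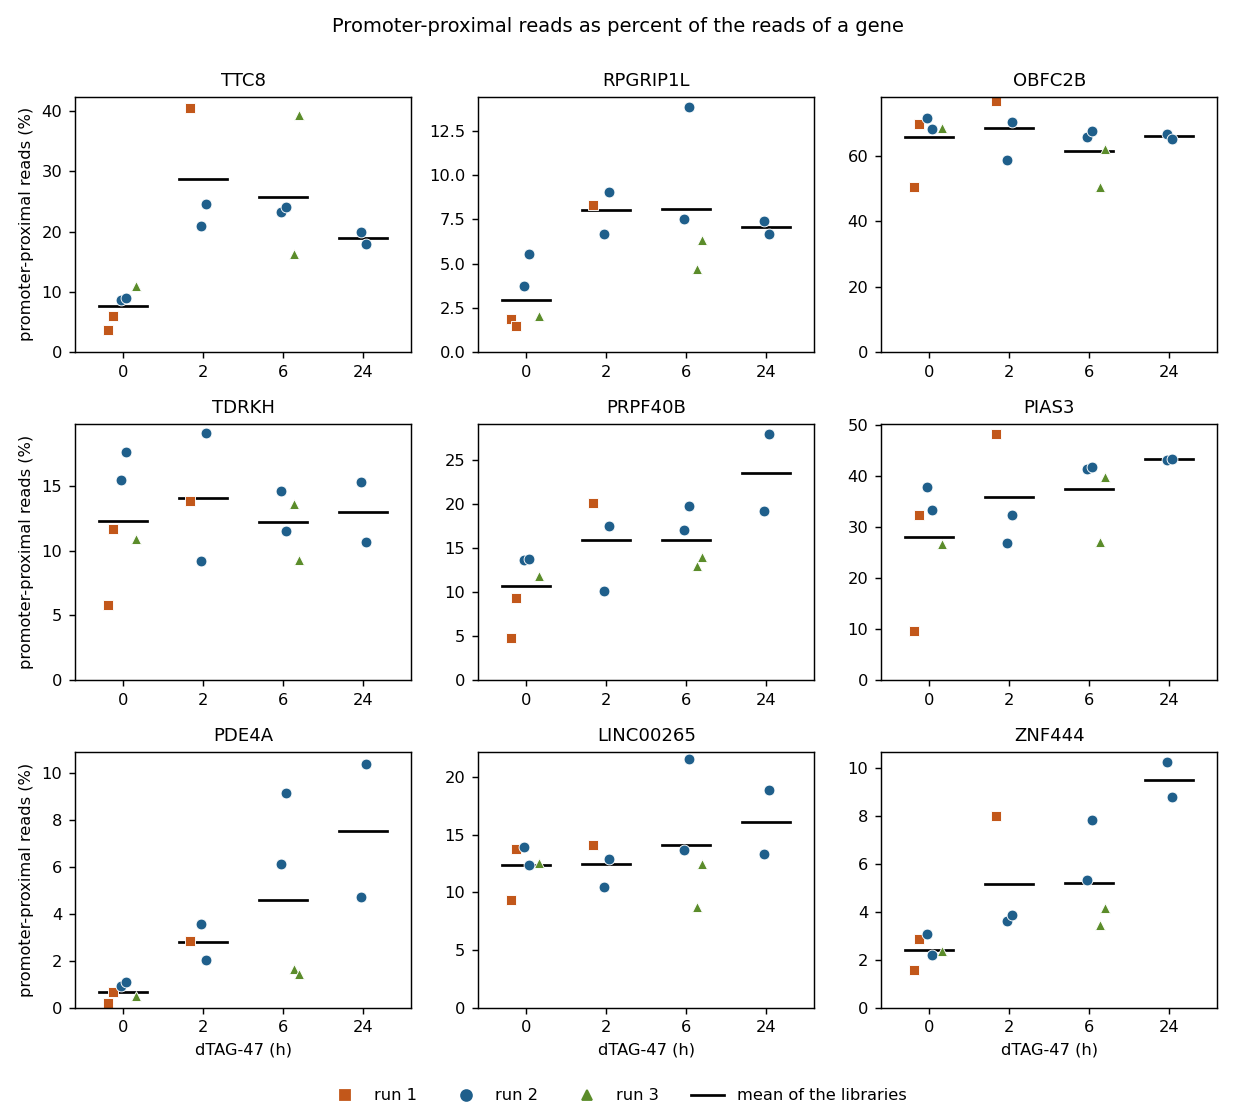
Reads near the promoter as a percentage of the promoter-proximal and gene-body reads of the gene, in each library by hours of dTAG-47, with symbols for runs and bars for means. TTC8 goes from a mean of 7.63% to 28.7% at 2 h, while OBFC2B, TDRKH and LINC00265 have means within 3 percentage points of untreated cells at 2 h.

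**Figure D4:**
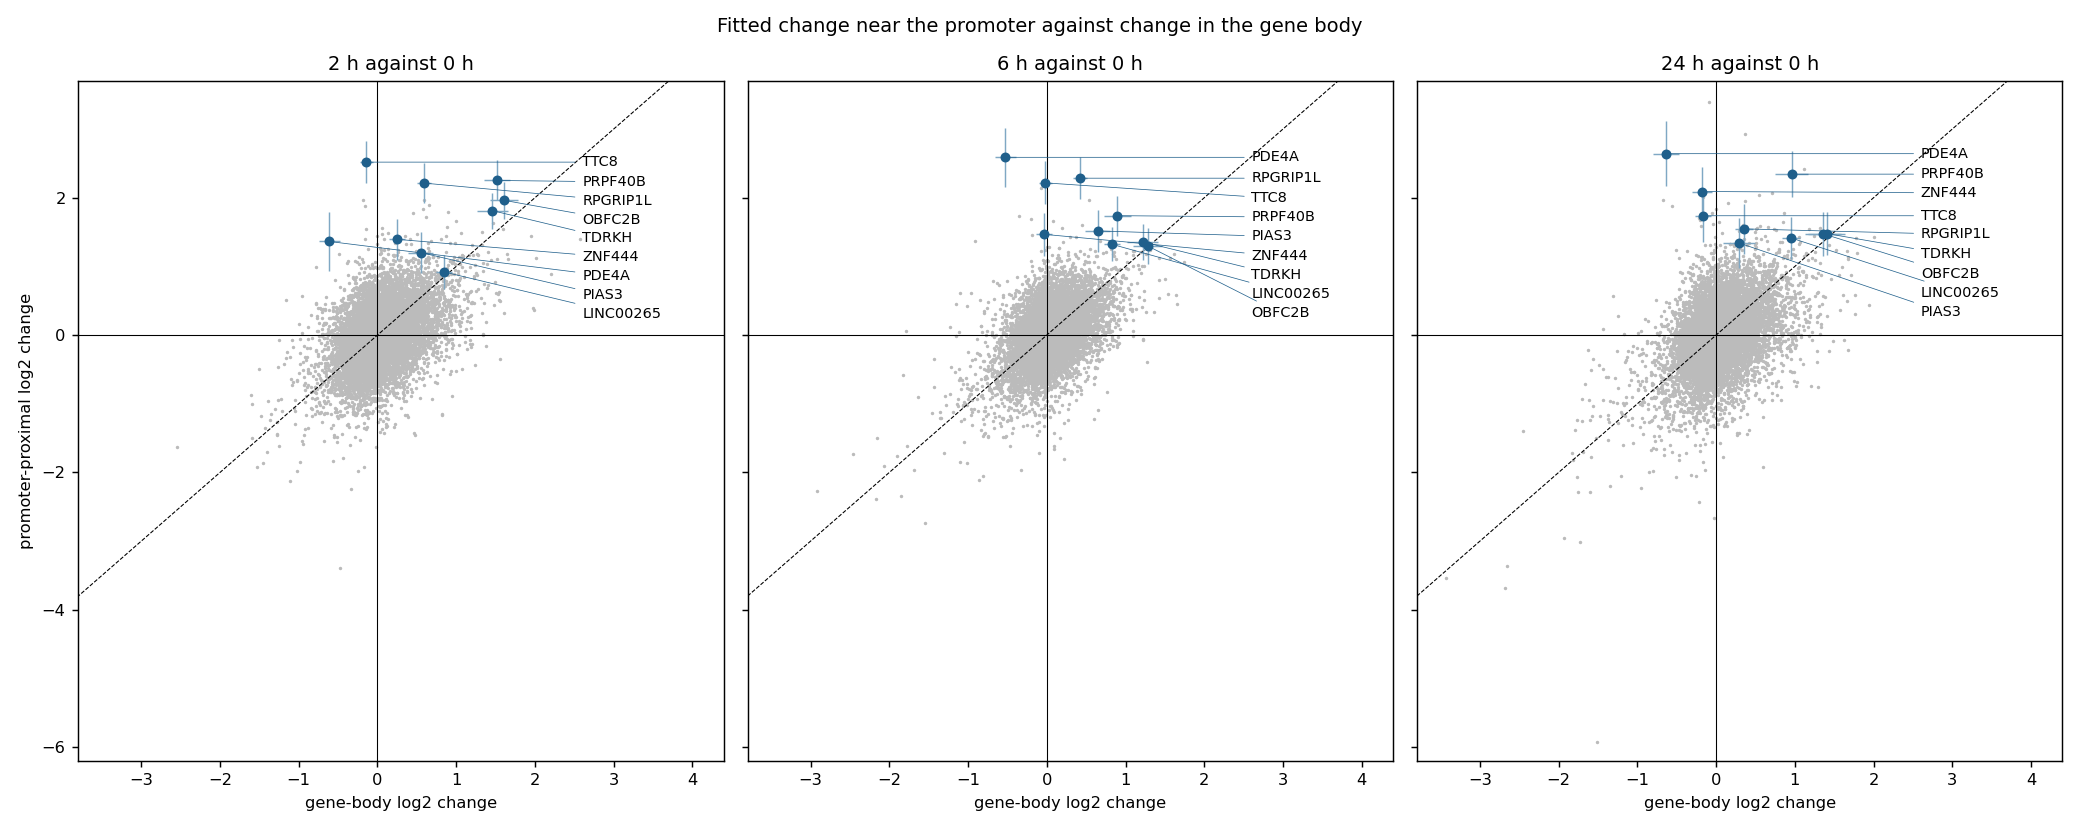
Fitted log2 change near the promoter (vertical) against that in the gene body (horizontal) at 2, 6 and 24 h, with bars of 1 SE for the 9 genes and grey dots for all other transcripts, and a dashed line where both are equal. TTC8, PDE4A and ZNF444 lie above zero vertically and at or left of zero horizontally at 6 and 24 h, whereas OBFC2B and TDRKH lie close to the dashed line.

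The untreated levels from which the gains were measured, and which the choice of members therefore used, were mostly low. The mean promoter-proximal level was below the median of all transcripts (43.0 CPM) in 8 of 9 genes, at percentiles from 0.13 to 31.9. In OBFC2B the mean of 50.1 CPM was above it through the library of run 3 alone. Per kilobase of listed length the untreated body level was below the median of 1.94 CPM in all 9, from 0.298 for RPGRIP1L to 1.47 for ZNF444, at percentiles from 0.631 to 36.8. Transcript lengths, which the rule did not use, ranged from 5.51 kb for OBFC2B to 104 kb for RPGRIP1L around a median of 24.8 kb over all. A low starting level gives a large fold for a small gain in reads, and whether the level and the gain are related was not tested.

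Start windows of 300 bases were found in RefSeq (GRCh38.p14) for 9 of 9 genes and searched on both strands for 10 short motifs that were chosen after the sequences had been seen. The windows below are shown for the ZNF143 motif and the cyclic AMP response element, each found in 2 members and in under 2% of all windows, and for the repeated CCAAT boxes of TDRKH. The ZNF143 motif was found 2 times in RPGRIP1L and 2 times in ZNF444. It occurs at least once in 1.75% of the 35116 windows and 2 times or more in 0.216%. TGACGTCA, the cyclic AMP response element, was found in PDE4A and LINC00265 and in 1.85% of windows. CCAAT, the box bound by NF-Y, was found in 5 of the 9 genes and in 34.6% of windows, and 5 matches in 1 window, as in TDRKH, in 0.359%. Each line runs from 250 bases before the start to 30 after it on the strand of the gene, and the capitals mark the named motif or its reverse complement. The intervals are chr16:53703830-53704109 (minus strand) for RPGRIP1L, chr19:56141037-56141316 (plus) for ZNF444, chr19:10416523-10416802 (plus) for PDE4A, chr7:39733318-39733597 (plus) for LINC00265 and chr1:151790471-151790750 (minus) for TDRKH.
RPGRIP1L, ZNF143 motif: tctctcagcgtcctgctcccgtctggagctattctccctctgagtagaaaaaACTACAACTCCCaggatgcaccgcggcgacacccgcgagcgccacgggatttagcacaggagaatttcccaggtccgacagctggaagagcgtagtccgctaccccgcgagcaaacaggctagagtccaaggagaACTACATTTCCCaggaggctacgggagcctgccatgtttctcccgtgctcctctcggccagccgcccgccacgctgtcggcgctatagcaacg
ZNF444, ZNF143 motif: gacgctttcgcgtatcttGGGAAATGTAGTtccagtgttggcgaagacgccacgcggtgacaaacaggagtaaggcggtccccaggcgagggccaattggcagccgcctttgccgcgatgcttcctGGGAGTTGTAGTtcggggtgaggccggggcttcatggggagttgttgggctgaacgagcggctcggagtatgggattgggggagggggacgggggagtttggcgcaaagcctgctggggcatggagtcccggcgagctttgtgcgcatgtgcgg
PDE4A, cyclic AMP response element: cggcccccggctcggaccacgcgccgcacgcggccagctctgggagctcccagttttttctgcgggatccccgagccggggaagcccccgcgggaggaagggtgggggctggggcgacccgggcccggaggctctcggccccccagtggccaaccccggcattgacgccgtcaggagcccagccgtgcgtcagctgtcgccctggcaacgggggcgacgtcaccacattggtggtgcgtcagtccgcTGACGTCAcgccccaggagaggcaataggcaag
LINC00265, cyclic AMP response element: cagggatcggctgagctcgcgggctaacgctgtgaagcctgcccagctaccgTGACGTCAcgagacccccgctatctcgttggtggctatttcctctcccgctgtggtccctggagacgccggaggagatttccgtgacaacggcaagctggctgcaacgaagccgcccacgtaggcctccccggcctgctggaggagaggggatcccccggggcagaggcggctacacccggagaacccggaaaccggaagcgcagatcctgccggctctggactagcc
TDRKH, CCAAT box: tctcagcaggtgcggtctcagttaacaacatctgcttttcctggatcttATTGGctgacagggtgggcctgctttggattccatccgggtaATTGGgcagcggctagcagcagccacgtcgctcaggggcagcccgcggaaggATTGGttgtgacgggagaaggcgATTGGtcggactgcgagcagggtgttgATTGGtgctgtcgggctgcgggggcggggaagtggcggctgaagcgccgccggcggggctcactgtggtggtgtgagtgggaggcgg
No motif was shared by all 9. The GC box GGGCGG was found in 7 of 9 and in 45% of windows, the ETS motif CCGGAAG in 2 and in 10.3%, the RUNX motif TGTGGT in 3 and in 13.1%, and the CTCF core motif in 1, OBFC2B, and in 2.41%. TATAAA, the NRF1 motif GCATGCGC and the RFX motif (X-box) of ciliary genes were in 0 of 9 windows and in 11.5%, 3.05% and 2.47% of all. These matches describe letters and not bound sites. The TTC8 window searched was the downstream one, which held none of the motifs, and the upstream window was not searched.

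Neighbouring transcripts were examined because the strand counted is not given in the sources used here, so that overlapping or facing genes could share reads. All 25 listed transcripts within 50 kb of a member, or nearest to it on either side, were taken, and 24 passed the filter near promoters. None of the 24 was called there at 2, 6 or 24 h (edgeR; 4, 5 and 5 at an unadjusted p under 0.05, and by DESeq2 2, which were RNF41 and MCRS1, then 0 and 0). Their median promoter-proximal log2 change was 0.06 (0.0624) at 2 h, -0.00439 at 6 h and -0.0905 at 24 h. Of the 5 with an unadjusted p under 0.05 at 24 h, AKTIP (1.27 ± 0.39, SE), RNF41 (1.09 ± 0.31) and ANKRD52 (0.94 ± 0.38) were higher. CDC37 (-0.95 ± 0.32) and ZNF787 (-0.62 ± 0.26) were lower. In gene bodies 9 of 25 were called at 2 h, 6 higher and 3 lower, beside the 38.6% of all transcripts.

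TTC8 had no listed transcript within 50 kb: ZC3H14 ended 211 kb before it, and FOXN3, on the other strand, had its nearer end 278 kb after it. FTO begins 104 bases from the start of RPGRIP1L and faces away from it. Its promoter-proximal log2 change at 2 h was 0.03 ± 0.24 (SE) where that of RPGRIP1L was 2.21 ± 0.30. At 6 h it was 0.38 ± 0.24, with 51.1 and 36.6 CPM in run 3 against 27.7 CPM untreated there, and 14.9 and 16.2 CPM in run 2 against 11.96 and 14.45 CPM. RNF41, which encodes a ubiquitin ligase, begins 2.37 kb from the start of OBFC2B and also faces away. It was higher at 2 h by 0.83 ± 0.26 near the promoter (edgeR, adjusted p = 0.0648) and rose in the body by 0.65 ± 0.093 (adjusted p = 0.00031), 0.34 at 6 h and 0.36 at 24 h, of which the 24 h call was lost in 11 of 19 alternatives. Its body level was 57.9 to 82.0 CPM untreated and 83.5 to 118 CPM treated, with no overlap. FMNL3, which encodes an actin-regulating formin, overlaps the end of PRPF40B on the other strand. Its body rose by 0.95 ± 0.074 at 2 h (adjusted p = 1.2e-05), and untreated libraries had 52.3 and 55.3 CPM in run 1 against 95.2 CPM after 2 h, and 30.9 and 32.1 CPM in run 2 against 61.7 and 64.6 CPM. The gene-body value of PRPF40B may therefore hold reads of FMNL3 and the reverse, while near the promoters FMNL3 had a log2 change of 0.43 ± 0.23 and PRPF40B 2.25 ± 0.29. NUDT17 overlaps the end of PIAS3 and was not called in either region (body -0.10 ± 0.19 at 2 h). On GRCh38, RefSeq also has OAZ3 overlapping TDRKH and FAM186B overlapping PRPF40B, and these were not analysed here.

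**Figure D5:**
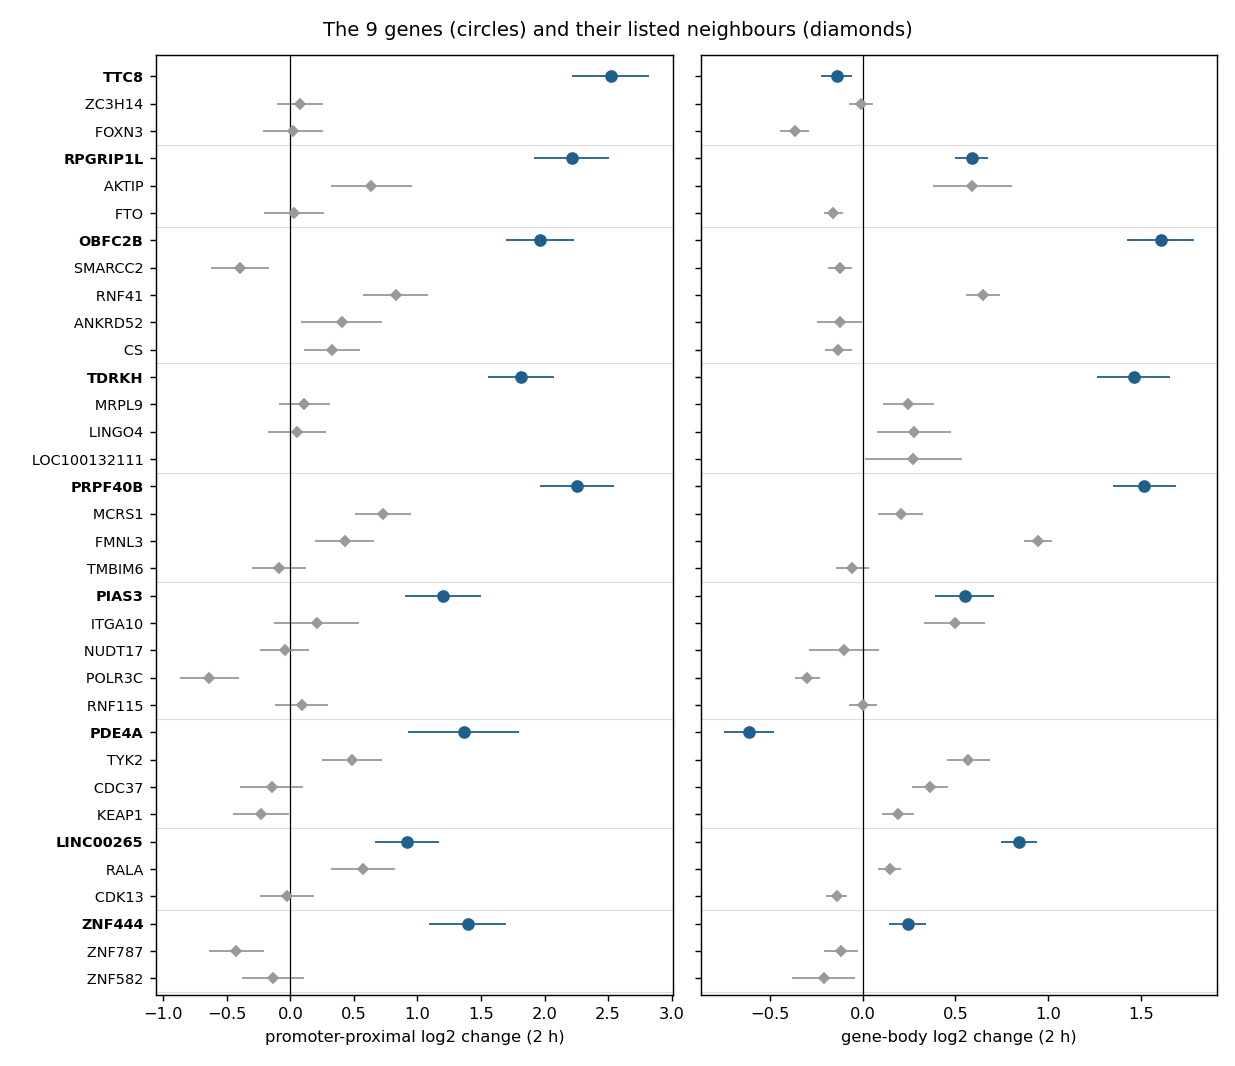
Fitted log2 change at 2 h near the promoter (left) and in the gene body (right) for the 9 genes (circles, bold names) and their 25 listed neighbours (diamonds), with bars of 1 SE. The circles on the left all lie right of the diamonds in their own block, the nearest being LINC00265 at 0.92 above RALA at 0.57. On the right FMNL3 and RNF41 lie highest among the diamonds.

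The gain was also compared between runs. A fit with a separate 2 h term for run 1 called 0 of 9980 transcripts near promoters for the difference between run 1 and run 2 (edgeR; 1213 at an unadjusted p under 0.05). For 6 h in run 3 against run 2 it called 0, with 652 unadjusted. DESeq2 was not run on this difference. With 0 transcripts called, the fit does not tell whether the gains of the members differed between runs. Their differences are given as descriptions. At 2 h, run 1 minus run 2 was 1.42 ± 0.54 (SE) for PRPF40B and 1.25 ± 0.58 for PIAS3 on the log2 scale. At 6 h, run 3 minus run 2 was -1.27 ± 0.47 for OBFC2B, -1.06 ± 0.48 for LINC00265 and -1.34 ± 1.08 for PDE4A. In gene bodies, 28.3% of transcripts differed between runs at 2 h. As a description, the body log2 change at 2 h was larger in run 1 by 1.11 ± 0.24 (SE) for TDRKH and 1.07 ± 0.22 for PRPF40B. Both had their lowest body levels in the untreated libraries of run 1. At 6 h 0.437% of transcripts differed in the body.

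Lists of genes that work with the other members were read for calls at 2 h. At that time 19.7% of all transcripts rose and 18.9% fell in bodies, and 2.43% rose and 2.17% fell near promoters. The genes named had the smallest adjusted p of their list, and no list was tested as a set. Of 13 SOSS and Integrator genes, OBFC2B apart, 4 rose and 2 fell in the body, with a median of 0.07 (0.0698) on the log2 scale beside 0.01 (0.0143) over all. INTS5, an Integrator subunit, rose by 0.73 ± 0.14 (SE, adjusted p = 0.00208), and OBFC2A, the paralog of OBFC2B, fell by 0.41 ± 0.076 (adjusted p = 0.00142). Of 14 SUMO pathway genes, PIAS3 apart, 1 rose and 5 fell, with a median of -0.14, and PIAS1, another PIAS ligase, fell by 0.32 ± 0.064 (adjusted p = 0.00237). Of 8 cyclic AMP phosphodiesterase and kinase A genes, PDE4A apart, 1 rose and 3 fell, with a median of -0.16, and PDE3B fell by 0.60 ± 0.13 (adjusted p = 0.00321). Each of these calls in INTS5, OBFC2A, PIAS1 and PDE3B ended without a run term, with adjusted p of 0.0901, 0.0895, 0.0574 and 0.0665. Without the 2 h library of run 1 the changes of INTS5 and PDE3B were 0.48 and -0.33. Of 21 genes of pausing and pause release 2 rose and 5 fell in the body, with a median of 0.02 (0.0184), and AFF1, of the super elongation complex, fell by 0.40 ± 0.048 (adjusted p = 0.000118, 0.34 without a run term). Near promoters the SOSS and SUMO lists had 0 calls at 2 h (edgeR; 2 and 3 at an unadjusted p under 0.05, 0 by DESeq2), and the other lists had 1 each: PRKACA, a catalytic subunit of kinase A, rose by 0.93 ± 0.25 (adjusted p = 0.0375) and CCNT2, a cyclin of P-TEFb, fell by 0.82 ± 0.19 (adjusted p = 0.0184). Each of these 2 calls was lost without a run term (adjusted p 0.177 and 0.433) and without the 2 h library of run 1 (0.155 and 0.0765).

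The transcripts whose promoter-proximal log2 CPM, centred within runs, most resembled that of TTC8 over the 14 libraries were OBFC2B (Pearson r 0.958), PROSER1 (0.954), TMEM8B (0.949), PTPLA (0.945) and C1orf228 (0.938). RPGRIP1L ranked 7 (0.925) and PDE4A 541 (0.677) among 9980. Over the 36 pairs of members r ran from 0.653 to 0.958 with a median of 0.832. These are descriptions, since the 14 libraries share the step from untreated to treated, and the members were chosen for that step. The resembling transcripts moved less than TTC8: in run 2 at 2 h the log2 difference was 0.44 for PROSER1, 0.80 for TMEM8B, 1.20 for PTPLA and 1.02 for C1orf228, where TTC8 had 2.22.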

How the data were processed

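PRO-seq reads were trimmed with Trimmomatic 0.32, aligned with Bowtie2 2.2.2 to hg19 and handled with SAMtools and HOMER, per the submitters' processing notes. The deposited tables hold whole-number counts by the authors for 10304 RefSeq transcripts in a promoter-proximal and a gene-body region. Neither the window sizes nor the strand counted is given in the sources used here. The counts were the same in the 3 tables per region, and 84 normalized columns were not used. Counts of 14 libraries were tested with edgeR 4.0.16 in R 4.3.3 (quasi-likelihood, TMM, minimum count 10, terms for run and time). The difference between regions was fitted with limma 3.58.1 on log2 CPM with a prior count of 2, and DESeq2 1.42.0 was an alternative. Calls had a Benjamini-Hochberg adjusted p under 0.05 over all transcripts. Library totals are in the report and intervals are exact binomial (95%). The p-values weigh a change against the spread between libraries that remains after the terms of the fit. Tested on simulated 2 h against 0 h data, edgeR recovered 81% of changes of 2-fold near promoters (9961 genes). In bodies edgeR recovered 89% (10304 genes), and limma recovered 31% for the difference between regions (9961 genes). These percentages describe the simulated data only, and recovery in the real libraries was not tested. The genes, lists and tests were chosen with earlier results of these data known. Transcripts named were the members, their neighbours by coordinates, the 5 most like TTC8 and called genes of the lists. Parental libraries were not analysed here.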

Additional observations from a re-analysis of the deposited data

Results flagged for a closer look

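Of 36 sets of libraries at a single time and region examined for a value far from the rest, 3 held one, where chance gives about 1 in 20. TTC8 had 16.1 CPM near the promoter in the untreated library of run 3, against 9.09 to 10.9 CPM in the other untreated libraries. OBFC2B had 91.5 CPM in that same library, against 37.5 to 42.0 CPM in the others. PIAS3 had 5.52 CPM in an untreated library of run 1, against 17.5 to 22.1 CPM in the others.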

How the results depend on the processing

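The column names carry a letter, A or B, that no label ties to a shared culture, and the A minus B deviations within run 2 correlated across transcripts between times from -0.145 to 0.326, so that the letters were not taken to pair the libraries. With the letter within run as a replicate block, counts at 2, 6 and 24 h were 455, 247 and 194 near promoters, 2845, 2307 and 1723 in bodies, and 67, 25 and 48 for the difference between regions. Neighbours then had 2 calls near promoters at 2 h and 6, 2 and 2 in bodies, and list genes 17 body calls at 2 h. The promoter-proximal log2 changes of the 9 genes stayed above zero under every alternative, as descriptions. The difference between regions in TDRKH at 24 h went from 0.0023 to -0.403 without the 24 h library A of run 2 and to 0.395 without B. Counts below are in the order 2, 6 and 24 h, and where they differ the cause was not tested. The fit used in the report called 460, 224 and 141 transcripts near promoters, 3979, 2762 and 2045 in bodies, and 115, 40 and 27 for the difference between regions. Among neighbours it called 0, 0 and 0 near promoters and 9, 5 and 4 in bodies, and among list genes 3, 1 and 0 and 27, 11 and 4. Without a run term the calls were 6 at 2 h and 20 at 24 h near promoters, 1365 and 1111 in bodies, 2 and 7 for the difference, and 4 and 2 among neighbours' bodies. List genes then gave 0 near promoters and 2 in bodies at 2 h, and 2 near promoters at 6 h. DESeq2 called 704, 358 and 242 near promoters, 2 neighbours near promoters at 2 h and 7 list genes in bodies at 24 h. With scaling factors of the gene body the counts were 34, 68 and 22 near promoters and 17, 4 and 3 for the difference. The median of all transcripts then lay at -0.158, -0.227 and -0.226, and 35.3%, 7.35% and 22.7% of promoter-proximal calls were higher, against 52.8%, 35.7% and 44.7% in the report's fit. A prior count of 0.5 gave 16 calls for the difference at 24 h, and neighbours within 10 kb gave 4 body calls at 2 h and 3 at 6 h. Run 2 alone called 1682, 938 and 1430 near promoters, 717, 208 and 629 for the difference, and 4383 at 6 h and 4447 at 24 h in bodies. It called 4 neighbours near promoters at 2 h and 4 at 24 h, 10 and 9 in bodies at 6 and 24 h, and 15, 7 and 11 list genes near promoters with 25 and 23 in bodies at 6 and 24 h. Leaving out both untreated libraries of run 1, chosen after seeing the data, gave 2546 body calls at 2 h, 539 and 374 near promoters and 141 and 144 for the difference at 6 and 24 h. Neighbours then had 1 call near promoters and 10 in bodies at 6 h, and list genes 13, 21 and 15 in bodies and 3 and 3 near promoters at 6 and 24 h. Leaving out each library in turn gave 137 to 724, 27 to 381 and 3 to 279 calls near promoters, 1922 to 4265, 1545 to 3329 and 596 to 2551 in bodies, and 12 to 152, 0 to 88 and 0 to 69 for the difference. Neighbours then had 5 to 10, 2 to 8 and 1 to 4 body calls and 0 to 2, 0 to 0 and 0 to 1 near promoters. List genes had 10 to 32, 2 to 15 and 1 to 9 body calls and 0 to 5, 0 to 2 and 0 to 2 near promoters. Depth limits PDE4A, RPGRIP1L and ZNF444, with 2 to 21 promoter-proximal reads in untreated libraries. It also limits PRPF40B, with 6 to 32 such reads, and TDRKH, with 15 to 35.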
